A study of Homo sapiens with 6 samples.

Results

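The respiratory chain genes of MCF10A cells, split by the genome that encodes them, were followed after silencing of PDCD4. Members were all protein-coding genes whose symbols mark them as subunits of complexes I to V or as NDUFAF assembly factors of complex I (symbols starting with MT-ND, MT-CO, MT-ATP, MT-CYB, NDUFA, NDUFB, NDUFC, NDUFS, NDUFV, UQCR, COX4 to COX8 or ATP5, and SDHA to SDHD). The rule used names only, and it found 109 of 34486 genes, or of 19692 protein-coding genes. Of these, 13 lie in mitochondrial DNA and 96 in the nucleus.

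MCF10A is an immortalised, non-tumorigenic human breast epithelial line of WT genotype. All cells grew with horse serum, epidermal growth factor, insulin, hydrocortisone and cholera toxin. An siRNA pool against PDCD4 (siPDCD4, 3 libraries) or a control siRNA (siCT, 3 libraries) was given at 10 nM and total RNA was taken at 48 h, so a transient knockdown in a single line was measured. The labels do not say whether replicates came from separate cultures, and p-values therefore measure the spread between libraries, which may be technical. In bulk RNA of this kind, fewer cells of a type and less RNA per cell cannot be told apart.

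The respiratory chain moves electrons from NADH (complex I) and succinate (complex II) through complexes III and IV to oxygen, and pumps protons that drive ATP synthase, complex V. Complex II is encoded wholly in the nucleus, while the other complexes combine nuclear subunits, made in the cytosol and imported, with core subunits translated inside mitochondria. Mitochondrial DNA is transcribed as long precursors from both strands and cut largely at the tRNAs between the genes. Nuclear subunits are transcribed as separate genes, many of which share binding sites for the factors NRF1, GABP (an ETS protein) and YY1.

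The sequences below show how tightly the mitochondrial mRNAs are packed, because this bears on which of their counts can be read separately. MT-ND4L and MT-ND4 share 7 bases, and MT-ATP8 and MT-ATP6 share 46 bases, each pair in another reading frame of a single bicistronic mRNA. Capitals mark the shared bases (all 7 at chrM:10748-10777, and the first 18 at chrM:8515-8544). In the last 2 lines capitals mark the start codons of MT-ND5 (chrM:12337-12366, plus strand) and of MT-ND6 (chrM:14644-14673, minus strand), whose genes end next to each other on opposite strands. All are from the GRCh38 reference, 5′ to 3′.
MT-ND4L/MT-ND4: aaacctactccaATGCTAAaactaatcgtc
MT-ATP8/MT-ATP6: ctgagaaccaaaATGAACGAAAATCTGTTC
MT-ND5: ATAaccatgcacactactataaccacccta
MT-ND6: ATGatgtatgctttgtttctgttgagtgtg

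MT-ND6 was the only member of the mitochondrial set encoded on the minus strand. Its sense sequence held 35.6% G and 7.05% C, whereas the other 12 coding genes held between 6.28% and 16.2% G and between 29.5% and 36.0% C. The kit used keeps strand, but the sources used here do not give the strand setting of the quantification.

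For nuclear members, the sequences shown are matches to a shared regulatory element. Of the 96 nuclear members, 76 had a RefSeq promoter window (GRCh38.p14, 250 bases before to 50 after the start). The core of the NRF1 motif, GCGCATG, searched on both strands as were the others, was present in 17 of these 76 windows (22.4%) and in 6.82% of 15843 protein-coding genes with such windows. The ETS motif CCGGAAG was in 22 (28.9% of members against 16.5%) and the YY1 core AAGATGG in 19 (25.0% against 7.9%), and 42 of 76 members held at least 1 of the 3. Below are NRF1 matches, in capitals, of 3 nuclear members. Among members with a match outside chromosomes 8 and 18, which were left aside, these had the highest TPM in siCT. They are ATP5ME (chr4:674337-674365, minus strand), ATP5MC2 (chr12:53676105-53676133, minus strand) and COX6A1 (chr12:120437885-120437913, plus strand). The capitals in ATP5MC2 and COX6A1 are the reverse complement of the core. A match is a description of the letters and not a shown binding site.
ATP5ME: cgccgctgacgGCGCATGcgtgcgcccag
ATP5MC2: cccgggtcacgCATGCGCtgagccttcct
COX6A1: gagggcacacgCATGCGCacgaaggaaac

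Between 13410441 and 21828931 estimated counts were assigned per library. PDCD4 itself stood at 90.4, 89.0 and 61.1 CPM (counts scaled to the size of the library) in siCT and at 9.15, 7.43 and 8.62 CPM in siPDCD4. This is a difference of -3.25 ± 0.17 on the log2 scale (SE, adjusted p = 2.15e-05 in edgeR). The library siCT replicate 3 stood apart on the first principal component (30.6, with the other 5 at or below 8.65). It was also the shallowest library, with 76.2% of its counts in protein-coding genes, against 78.7% to 86.4% in the other 5. Values without it are given beside the results that it moved most. Of 12 markers of basal mammary epithelium, all were tested, 0 passed in edgeR (6 at an unadjusted p under 0.05, beside 8.62% of all genes) and 2 passed in DESeq2, 1 in each direction (beside 1.46%), and their summed level was 7873 to 8070 CPM in siCT and 6832 to 7689 CPM in siPDCD4. The 11 markers of luminal, immune, endothelial and fibroblast cells summed to 11.8 to 16.6 CPM in siCT and 13.1 to 15.7 CPM in siPDCD4, and 4 of them were below 0.1 CPM in every library. Of the 3 tested, 0 passed in edgeR or DESeq2. An unadjusted p under 0.05 in edgeR was seen for 1, PECAM1, beside 8.62% of all genes. PECAM1 was at 1.02, 0.987 and 1.01 CPM in siCT and at 1.18, 2.01 and 4.28 CPM in siPDCD4.

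In control cells, the 7 members with the highest mean levels per transcript length were all mitochondrial mRNAs. MT-CO3, a core subunit of cytochrome c oxidase (complex IV), led with 4261 ± 214 TPM (abundance scaled for transcript length and library size, mean ± SD, n = 3), and was number 8 among protein-coding genes. MT-ATP8 followed at 2259 ± 267 TPM and MT-CO1, the catalytic subunit of complex IV, at 1942 ± 323 TPM, and these neighbours did not differ beyond their SDs. MT-CO2 (1262 ± 77.2 TPM), MT-ATP6 (1152 ± 62.4 TPM), MT-ND4L (1077 ± 79.6 TPM) and MT-ND3 (906 ± 61.8 TPM) also exceeded every nuclear member by mean level. The SDs of MT-ND3 and of the highest nuclear member, ATP5ME (871 ± 164 TPM), overlapped. The remaining mitochondrial mRNAs ranked from 13 (MT-ND4) to 51 (MT-ND6) among members. At the low end were MT-ND5 (171 TPM) and MT-ND6 (153 TPM), so levels per length within mitochondrial DNA ranged from 153 to 4261 TPM with a median of 906 TPM. Such ranks are uncertain for MT-ATP8 and MT-ND4L, which are short and overlap a neighbour.

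Nuclear members that passed the expression filter ranged from 0.645 to 871 TPM, with a median of 120 TPM. The highest were small accessory subunits: ATP5ME (871 ± 164 TPM) and ATP5MF (739 ± 118 TPM) of ATP synthase, COX7C (694 ± 132 TPM) of complex IV, and UQCRQ (638 ± 121 TPM) and UQCRH (627 ± 98.6 TPM) of complex III. Their SDs overlap, and no order among these 5 can be read. By complex, median levels of nuclear members were 303 TPM for complex IV, 270 TPM for complex V, 167 TPM for complex III and 89.4 TPM for complex II, with complex I between the last 2, while the NDUFAF assembly factors, which are not part of the finished complex, had a median of 28.6 TPM. All 4 complex II genes, of which SDHB was highest (133 TPM), lay between 70.3 and 133 TPM.

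**Figure D1:**
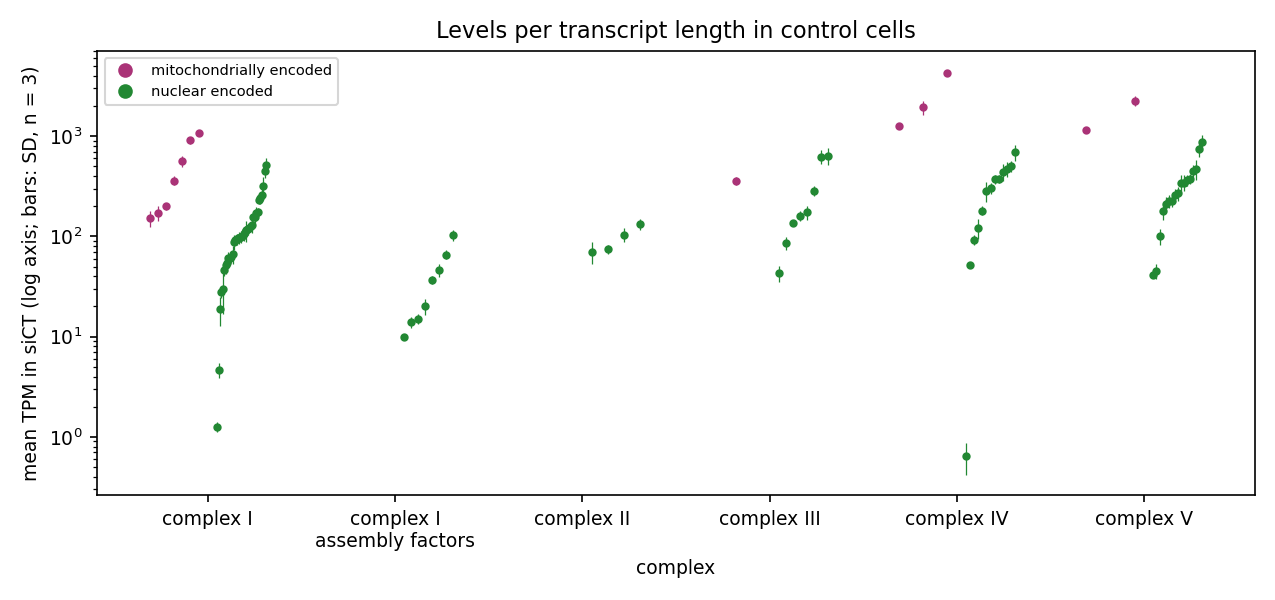
Mean TPM of each tested member in the 3 siCT libraries (vertical log axis, bars show the SD) by complex (horizontal axis), mitochondrially encoded in purple and nuclear encoded in green. The 3 mitochondrial subunits of complex IV and the 2 of complex V lie above all nuclear subunits of the same complex, whereas in complexes I and III the genomes overlap.

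Paralogue choice followed the ubiquitous forms. COX4I1 (303 TPM), COX6A1 (374 TPM), COX6B1 (473 TPM), COX7A2 (444 TPM) and COX8A (378 TPM) were measured in every library. Their tissue-restricted partners COX4I2, COX6A2 and COX8C had 0 counts throughout, COX7A1 reached 1 count in 1 library, and COX6B2, best known from testis, held 10.6 to 20.8 counts. NDUFA4, a subunit of complex IV despite its name, stood at 92.6 TPM and its paralogue NDUFA4L2 at 0 to 7 counts. Among the genes for the c-ring of ATP synthase, ATP5MC2 (376 TPM) and ATP5MC3 (343 TPM) were above ATP5MC1 (227 TPM). UQCRHL, a near-identical copy of UQCRH, received 1 to 4.1 counts, and reads could be shared between such copies.

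No member changed at an FDR of 5% after PDCD4 silencing. Of the 109 members, 101 passed the expression filter, all 13 mitochondrial and 88 nuclear, and 0 were called by edgeR, where 56 of 13047 genes (0.429%) were called in all. The 8 members not tested were UQCRHL, COX4I2, COX6A2, COX7A1, COX7B2, COX8C, NDUFA4L2 and ATP5MGL, with at most 8.9 counts in any library. DESeq2, the tool used by the study, called 1 member, MT-ND4, and 1.46% of all genes (0.82% lower in siPDCD4). At an unadjusted p under 0.05 there were 5 mitochondrial members, all lower in siPDCD4, and 0 nuclear members, against 4.52% of all genes lower and 8.62% in either direction.

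The 95% confidence interval lay within a 1.5-fold change in either direction for 81 of 88 nuclear and 11 of 13 mitochondrial members. Median SEs were 0.11 on the log2 scale for nuclear and 0.10 for mitochondrial members. The precision was therefore enough to bound most members to small changes, not to show that they were equal.

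**Figure D2:**
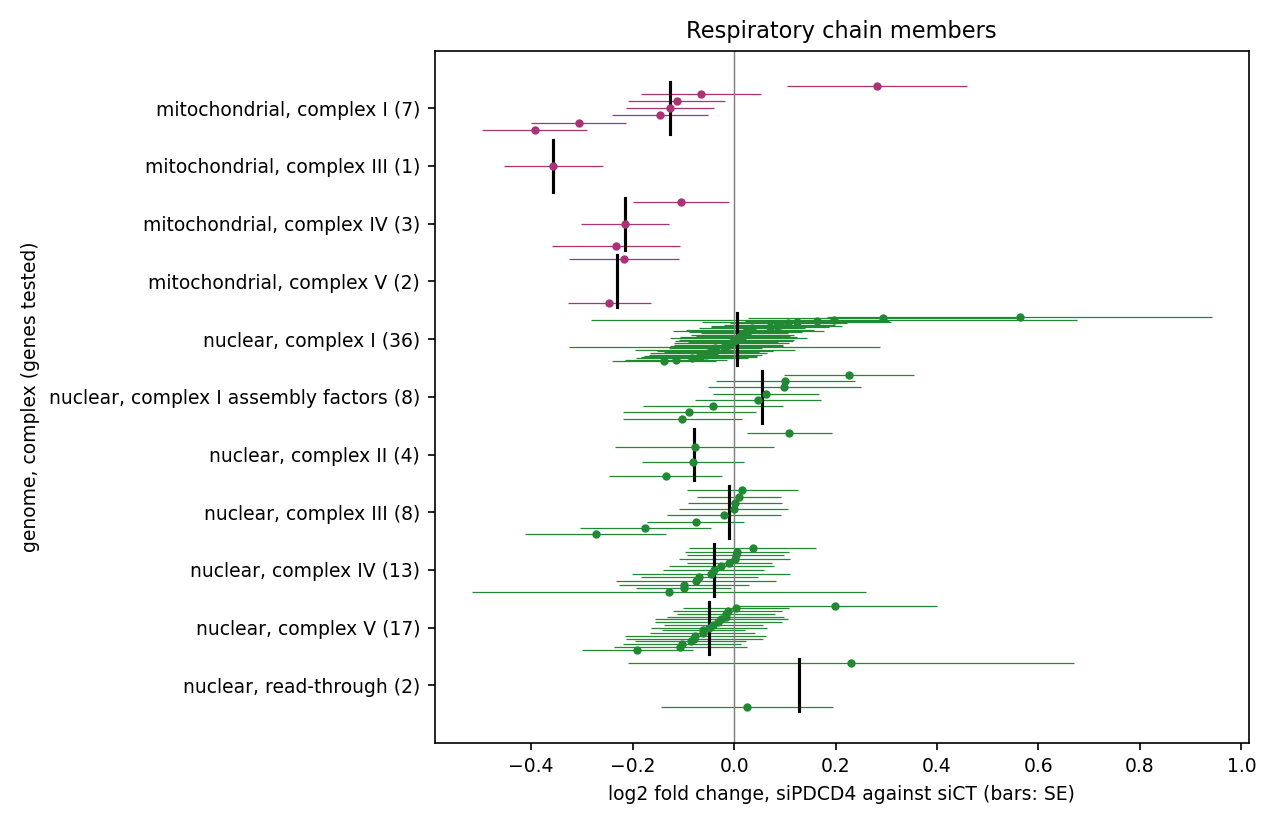
The log2 fold change of each tested member, siPDCD4 against siCT (horizontal axis, points with SE bars), by genome and complex (vertical axis, number of genes in brackets), with black lines at the medians. Mitochondrial members lie left of 0 apart from MT-ND6 at 0.28, and nuclear groups are centred near 0.

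Among the mitochondrial mRNAs, 12 of 13 had a log2 fold change below 0, with a median of -0.22 and a range from -0.39 to 0.28, whereas the median of all 13047 genes was -0.01 and 51.3% of them were below 0. Levels did not overlap between groups for 6 of the 13, all lower in siPDCD4 (MT-ND1, MT-ND4, MT-ND4L, MT-CYB, MT-CO2 and MT-ATP6), against 7.14% of all genes. Because these mRNAs are cut from shared precursors, they are not 13 separate observations. Part of the difference came with siCT replicate 3, which had the highest level of the 6 libraries in 11 of 13 mitochondrial mRNAs (21.2% of all genes). Without that library the median was -0.10, 11 of 13 stayed below 0 and 6 were lower without overlap, a setting in which 16.8% of all genes were.

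**Figure D3:**
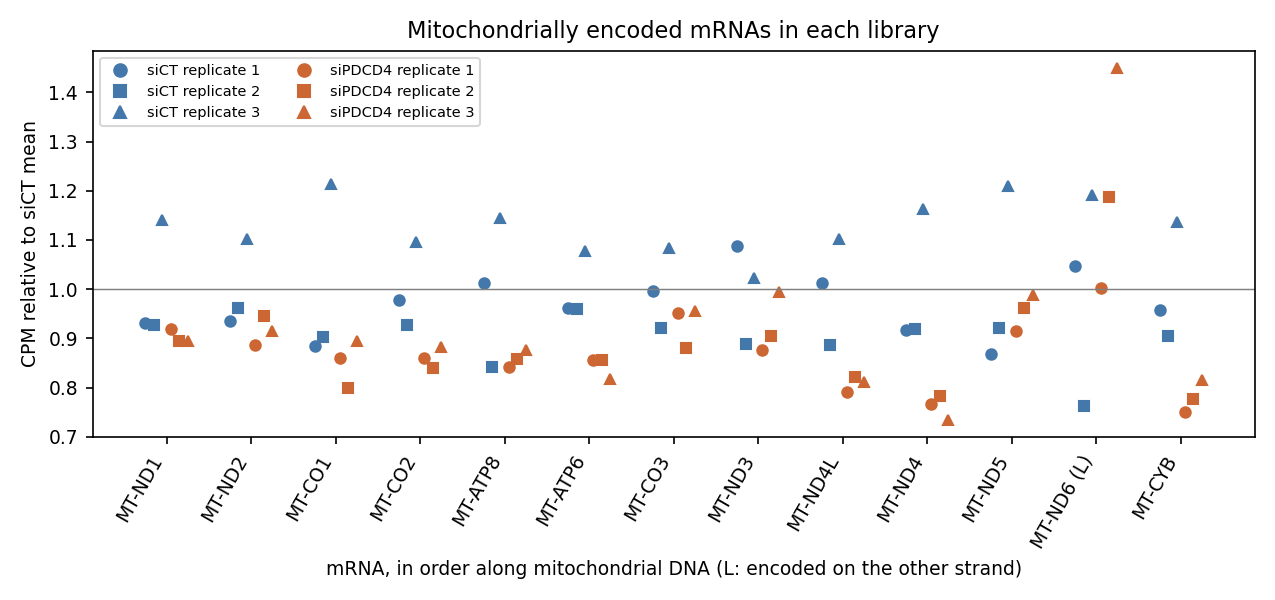
CPM of each mitochondrial mRNA relative to the siCT mean (vertical axis) in each library, with the mRNAs in order along mitochondrial DNA (horizontal axis), siCT in blue, siPDCD4 in orange, and the replicate given by the marker. The siCT replicate 3 triangles are the highest point of 11 mRNAs. MT-ND1, MT-ND4, MT-ND4L, MT-CYB, MT-CO2 and MT-ATP6 have all siPDCD4 points below all siCT points.

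MT-ND4, a proton-pumping subunit of complex I (chrM:10760-12137), had the largest difference among mitochondrial mRNAs. It stood at 690, 693 and 876 CPM in siCT replicates 1, 2 and 3, and at 577, 589 and 554 CPM in siPDCD4. Every siPDCD4 library was below every siCT library, by a log2 fold change of -0.39 ± 0.10 (SE, 95% interval -0.62 to -0.16), which missed the threshold in edgeR (adjusted p = 0.213) and passed it in DESeq2 (adjusted p = 0.0379). Without siCT replicate 3 the log2 fold change was -0.27. MT-ND4L, read from the same bicistronic mRNA, gave 150, 131 and 163 CPM in siCT and 117, 122 and 120 CPM in siPDCD4 (-0.31 ± 0.09, adjusted p = 0.290 in edgeR). The ratio of MT-ND4L to MT-ND4 in TPM was 1.92 ± 0.17 in siCT and 2.03 ± 0.07 in siPDCD4, and the groups overlapped.

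MT-CYB, cytochrome b and the only mitochondrial subunit of complex III (chrM:14747-15887), showed a similar difference. Its level was 365, 344 and 433 CPM in siCT and 286, 296 and 310 CPM in siPDCD4, so the groups were separate. The log2 fold change was -0.36 ± 0.10 (adjusted p = 0.225 in edgeR, 0.0697 in DESeq2), and -0.25 without siCT replicate 3.

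In ATP synthase, MT-ATP6, the subunit that forms the proton channel, was at 607, 605 and 680 CPM in siCT and at 541, 540 and 516 CPM in siPDCD4. These groups did not overlap, with a log2 fold change of -0.25 ± 0.08 (adjusted p = 0.362 in edgeR). MT-ATP8, its partner on the same mRNA, was at 145, 120 and 163 CPM in siCT and at 120, 123 and 125 CPM in siPDCD4, and here the groups overlapped (-0.22 ± 0.11, adjusted p = 0.651, and -0.11 without siCT replicate 3). The ratio of MT-ATP8 to MT-ATP6 in TPM was 1.96 ± 0.20 in siCT and 2.01 ± 0.09 in siPDCD4, with overlap.

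The 3 complex IV core subunits had log2 fold changes from -0.23 to -0.11. MT-CO2, which accepts electrons from cytochrome c, was at 680, 645 and 763 CPM in siCT and at 599, 585 and 614 CPM in siPDCD4, without overlap (-0.22 ± 0.09, adjusted p = 0.50 in edgeR). MT-CO1 was at 2607, 2662 and 3582 CPM in siCT and at 2537, 2358 and 2637 CPM in siPDCD4, and its log2 fold change of -0.23 ± 0.13 became -0.07 without siCT replicate 3. For MT-CO3 the values were 2818, 2605 and 3064 CPM in siCT and 2695, 2492 and 2702 CPM in siPDCD4. MT-CO1 and MT-CO3 thus overlapped between groups, and the MT-CO3 difference was -0.11 ± 0.09, or -0.044 without siCT replicate 3.

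Of the other complex I subunits of mitochondrial DNA, 4 had values between -0.15 and -0.07. MT-ND1 was at 289, 287 and 354 CPM in siCT and at 285, 277 and 277 CPM in siPDCD4 (-0.15 ± 0.09), a separation that was narrow in replicates 1 and 2 of siCT. The MT-ND1 value was -0.041 without siCT replicate 3. MT-ND2 (-0.13 ± 0.09, and -0.051 without that library) and MT-ND3 (-0.11 ± 0.10) overlapped between groups. MT-ND5, at 271, 288 and 377 CPM in siCT and 285, 300.3 and 309 CPM in siPDCD4, had a log2 fold change of -0.07 ± 0.12 that turned to 0.09 without siCT replicate 3. None of these 4 passed the test.

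MT-ND6, the minus-strand mRNA, was the only mitochondrial mRNA with a value above 0. It was at 59.9, 43.6 and 68.2 CPM in siCT and at 57.5, 68.0 and 83.0 CPM in siPDCD4, with overlapping groups and a log2 fold change of 0.28 ± 0.18 (95% interval -0.12 to 0.68, adjusted p = 0.788 in edgeR), or 0.42 without siCT replicate 3. As a share of mitochondrial mRNA in TPM it was 1.12%, 0.880% and 1.11% in siCT and 1.19%, 1.45% and 1.68% in siPDCD4. By this measure, chosen after its values were seen, the groups did not overlap. A further ratio chosen in the same way, MT-ND4 to MT-ND5 in TPM, was 3.48, 3.29 and 3.17 in siCT and 2.77, 2.68 and 2.45 in siPDCD4, so that MT-ND4 was 20.6% lower relative to its plus-strand neighbour, and 22.3% lower without siCT replicate 3. No test was run on either measure, and whether reads of opposite strands were kept apart there was not tested.

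Of the 88 tested nuclear members, 36 lay above 0 and 52 below 0 in log2 fold change, beside 51.3% of all genes below 0. Their median was -0.02 and their range was from -0.27 to 0.56. Their groups did not overlap for 0 members lower and 1 member higher in siPDCD4, against 7.14% and 6.81% of all genes. The control group was widely spread: siCT replicate 3 was the lowest library for 67 of 88 nuclear members (26.5% of all genes), and siCT replicate 1 the highest for 58 (22.5% of all genes). Measured as the median log2 deviation of nuclear members from their 6-library mean, siCT replicates 1, 2 and 3 were at 0.18, 0.03 and -0.17, and siPDCD4 replicates 1, 2 and 3 at 0.01, 0.03 and -0.08. With siCT replicate 3 left out, the nuclear median became -0.10, beside -0.01 for all genes, and 71 of 88 were below 0. In that setting 26 nuclear members were lower without overlap, where 16.8% of all genes were.

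By complex, the nuclear medians were 0.01 for complex I (19 above 0 and 17 below), 0.05 for the NDUFAF assembly factors, -0.08 for complex II, -0.01 for complex III, -0.04 for complex IV and -0.05 for complex V, where 15 of 17 genes were below 0. Without siCT replicate 3 they were -0.074, -0.031, -0.20, -0.12, -0.095 and -0.15 in the same order. Of all genes tested, 51.3% were below 0 with all libraries. None of these groups held a called gene in edgeR or DESeq2.

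In complex I, NDUFA6, an accessory subunit at the matrix side, had the largest value of all members, at 39.9, 14.2 and 35.3 CPM in siCT and 48.9, 47.3 and 35.7 CPM in siPDCD4. The groups overlapped, siCT replicate 2 was far below the rest, and the log2 fold change of 0.56 ± 0.38 did not pass (adjusted p = 0.832 in edgeR). Between 71.1 and 316 further counts per library lay on 4 transcripts without a gene match that have the same lengths as NDUFA6 transcripts, and with these added the value was 0.43. In that setting 1 nuclear member had an unadjusted p under 0.05 in edgeR, against 0 without the added counts, and 0 were called. NDUFS5, the highest nuclear complex I member in TPM, had a log2 fold change of -0.08 ± 0.11, or -0.17 without siCT replicate 3. NDUFS3 and NDUFA3 could hardly be judged: NDUFS3 was represented by 3 transcripts without a coding sequence and 28.1 to 79.0 counts, and NDUFA3 by 5.0 to 28.6 counts.

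NDUFAF7, a methyltransferase needed for complex I assembly, was the nuclear member whose groups did not overlap in CPM. It was at 18.4, 18.3 and 18.4 CPM in siCT and at 18.6, 22.9 and 23.1 CPM in siPDCD4. In siPDCD4 replicate 1 it was level with the controls, and the log2 fold change was 0.23 ± 0.13 (adjusted p = 0.729 in edgeR). This value rested on the length offset, without which it was 0.038. In TPM the NDUFAF7 groups overlapped, with 10.33 TPM in siCT replicate 2 and 10.25 TPM in siPDCD4 replicate 1. NDUFAF3 (-0.10 ± 0.12) and NDUFAF8 (0.05 ± 0.12), both needed to build complex I, overlapped between groups, and were at -0.15 and -0.038 without siCT replicate 3.

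For complex II, the flavoprotein SDHA was at 154, 165 and 146 CPM in siCT and 168, 157 and 176 CPM in siPDCD4 (0.11 ± 0.08, adjusted p = 0.859 in edgeR). The membrane anchor SDHD (-0.14 ± 0.11) and the iron-sulfur subunit SDHB (-0.08 ± 0.10) had values below 0. Values of SDHA, SDHD and SDHB were 0.068, -0.25 and -0.16 without siCT replicate 3. All 4 genes overlapped between groups.

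UQCR11, a small subunit of complex III, had the lowest value among nuclear members, at 57.3, 56.7 and 45.4 CPM in siCT and 47.9, 48.4 and 35.9 CPM in siPDCD4. Here siCT replicate 3 lay below siPDCD4 replicates 1 and 2, so the groups overlapped, and the log2 fold change of -0.27 ± 0.14 did not pass (adjusted p = 0.667 in edgeR). These UQCR11 values include the length offset, and the mix of its transcripts differed between groups. Coding transcripts held 70.5% of its counts in siCT and 79.9% in siPDCD4. Its unscaled counts were 983, 895 and 578 in siCT and 854, 779 and 668 in siPDCD4, from libraries of unequal depth. UQCRQ, which sits beside cytochrome b, was at 241, 209 and 166 CPM in siCT and 198, 181 and 167 CPM in siPDCD4 (-0.18 ± 0.13, and -0.31 without siCT replicate 3).

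In complex IV, COX5A (-0.10 ± 0.09), COX7A2 (-0.10 ± 0.13) and COX7C (0.04 ± 0.12) overlapped between groups, and were at -0.16, -0.23 and -0.064 without siCT replicate 3. COX7C shows the pattern of many nuclear members, with 301, 223 and 209 CPM in siCT and 253, 245 and 253 CPM in siPDCD4, so the 3 siPDCD4 values lay inside the control range.

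In ATP synthase, the c-ring gene ATP5MC1 was at 118, 101 and 92.0 CPM in siCT and 96.0, 94.4 and 82.0 CPM in siPDCD4 (-0.19 ± 0.11, adjusted p = 0.735 in edgeR). ATP5F1D, the delta subunit, was at 15.2, 19.6 and 20.1 CPM in siCT and 22.5, 25.7 and 14.7 CPM in siPDCD4 (0.20 ± 0.20). ATP5ME, the highest nuclear member in TPM, had a log2 fold change of -0.03 ± 0.13, or -0.14 without siCT replicate 3. All 3 overlapped between groups.

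Nuclear members with and without the NRF1 core in the promoter window had median log2 fold changes of -0.03 and -0.01, beside -0.01 for all genes tested.

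The direct comparison of the genomes was made within each library. Mitochondrial members held 0.851%, 0.836% and 1.01% of all counts in siCT replicates 1, 2 and 3 and 0.806%, 0.743% and 0.818% in siPDCD4 (0.898 ± 0.095 against 0.789 ± 0.040, SD, n = 3 each). All siPDCD4 values were below all siCT values, by 12.1% of the mean, and by 6.42% without siCT replicate 3. As a share of protein-coding counts instead of all counts the groups overlapped, with 1.11 ± 0.19% in siCT and 0.982 ± 0.035% in siPDCD4, and the mean difference of -11.3% became -1.71% without siCT replicate 3.

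Nuclear members held 1.05%, 0.955% and 0.805% of counts in siCT and 0.952%, 0.918% and 0.889% in siPDCD4, with overlap and a mean difference of -1.87%. Without siCT replicate 3 it was -8.34%.

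The ratio of mitochondrial to nuclear counts was 0.809, 0.875 and 1.25 in siCT and 0.847, 0.809 and 0.920 in siPDCD4. The groups overlapped, the means were 0.978 ± 0.239 and 0.859 ± 0.056, and siCT replicate 3 alone was above every other library. The siPDCD4 mean was 12.2% lower with all libraries and 2.00% higher without siCT replicate 3. The larger difference of the mitochondrial set therefore rested on that library, which was the highest for mitochondrial and the lowest for nuclear members. That library also had the lowest protein-coding share (76.2%) and the lowest total, and their part in it was not tested. In siPDCD4 replicate 2, next lowest in both (78.7% and 15547679 counts), the ratio was 0.809.

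**Figure D4:**
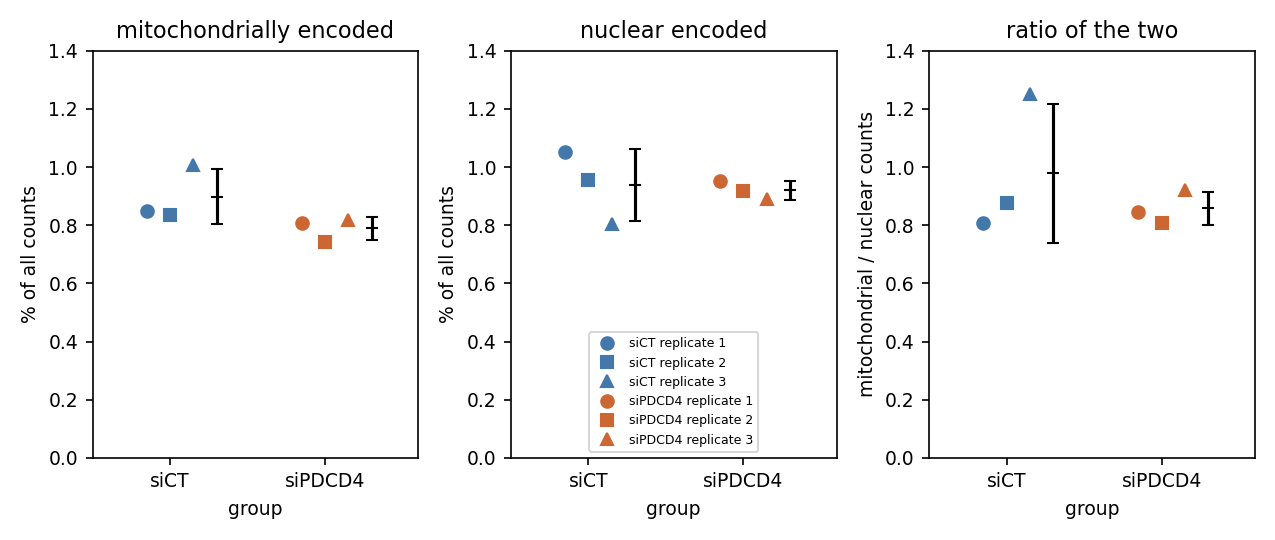
Share of all counts held by mitochondrially encoded members (left, %), by nuclear encoded members (middle, %) and their ratio (right), by group, with points for libraries and bars for mean ± SD (n = 3). In siCT replicate 3 (blue triangle) the mitochondrial share is 1.01% and the nuclear share 0.805%, which gives the ratio of 1.25.

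Within each complex, the ratio also overlapped between groups. The summed CPM of mitochondrial over nuclear subunits was 0.781 ± 0.183 in siCT and 0.665 ± 0.035 in siPDCD4 for complex I, 0.284 ± 0.071 and 0.224 ± 0.018 for complex III, 3.76 ± 0.96 and 3.32 ± 0.28 for complex IV, and 0.217 ± 0.047 and 0.187 ± 0.005 for complex V. The mean differences were -14.9%, -21.0%, -11.7% and -13.8% with all libraries. Without siCT replicate 3 they were -1.68%, -7.60%, 3.17% and -1.71%, so complex IV alone changed sign.

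Counts assigned to nuclear pseudogene copies of mitochondrial genes came to 0.612% to 0.744% of the mitochondrial counts, and adding them left the difference in share at -12.1%. Genes for mitochondrial rRNAs and tRNAs are not among those analysed here.

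Genes that serve the chain without matching the symbols were examined as 7 lists, and of 198 members tested 0 passed in edgeR or DESeq2 and 5 had an unadjusted p under 0.05 in edgeR, beside 8.62% of all genes. Of the 52 assembly factors tested, 25 were above 0 and 27 below (median 0.00), and COX20, a chaperone of MT-CO2, had the smallest p (-0.23 ± 0.10, adjusted p = 0.549). Among 17 genes for transcription and replication of mitochondrial DNA the median was also 0.00, with POLRMT, the mitochondrial RNA polymerase, at -0.22 ± 0.10 and MGME1, a nuclease for mitochondrial DNA, at 0.22 ± 0.11. The 21 genes for processing and stability of mitochondrial RNA had a median of -0.02, and PRORP, the nuclease that frees the 5′ ends of tRNAs, was at -0.25 ± 0.12. FASTKD3, with the next smallest p in that list, was at 0.34 ± 0.17. The 76 mitochondrial ribosomal proteins tested had a median of -0.01 (36 above 0, 40 below). Without siCT replicate 3 the medians were -0.071 for assembly factors, -0.0026 for transcription and replication, -0.046 for RNA processing and -0.078 for ribosomal proteins.

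Of 10 nuclear regulators tested, 7 were above 0. PPARGC1B, with the smallest p among them, was at 0.12 ± 0.11, and NRF1 itself was at -0.14 ± 0.13. Cytochrome c (CYCS) was at -0.03 ± 0.13, or -0.17 without siCT replicate 3, and DMAC2L, listed with it as a coupling factor of ATP synthase, at -0.59 ± 0.18 (adjusted p = 0.312). The 19 genes of pyruvate oxidation and the citric acid cycle had a median of -0.02 (-0.068 without that library), with pyruvate carboxylase PC at 0.31 ± 0.11 (adjusted p = 0.381).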

How the data were processed

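Total RNA of 6 MCF10A libraries was sequenced as stranded paired reads. The authors pseudo-aligned reads to a GRCh38 transcriptome with Salmon (version not given in the sources used here) and deposited estimated counts, TPM and effective lengths per transcript. Transcripts were matched here by identifier to GENCODE release 44 (181244 of 194142, the rest holding 5.47% to 6.21% of counts) and summed to genes. Rounded estimated counts entered edgeR 4.0.16 (R 4.3.3; robust quasi-likelihood F test, TMM factors, filterByExpr, offset for transcript length), with Benjamini-Hochberg adjustment over 13047 genes at an FDR of 5%. CPM values use the TMM factors and the length offset. DESeq2 1.42.0 and limma 3.58.1 (voom) were alternatives, and the authors also used tximport and DESeq2. The tests were checked on simulated data. The ± sign gives the SE for log2 fold changes and the SD for levels. TPM values deposited by the authors gave levels between genes.

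Members and lists were chosen with earlier results of these data known. Named genes were the 13 mitochondrial mRNAs, the 2 nuclear members with the smallest p and the 1 with the highest TPM in each of 6 groups, paralogue pairs, up to 2 genes per further list, and PDCD4. A gene that this rule names is not reported here. Sums over members were given without a test. Python 3.11.15, pandas 2.3.3 and matplotlib 3.10.9 served for tables and figures.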

Additional observations from a re-analysis of the deposited data

How the results depend on the processing

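Over 31 named genes, 485 of 497 values from other settings kept their direction and their side of the threshold. MT-ND4 passed with DESeq2 (-0.39, adjusted p = 0.0379), which made 1 member and 1 mitochondrial member called where edgeR called 0. NDUFAF7 moved from 0.23 to 0.038 with no length offset. The adjusted p of MT-ND4 in edgeR was 0.0995 with no filter on low counts. Directions reversed for genes near 0: without the length offset COX7C (-0.021) and NDUFAF8 (-0.011), and with single libraries left out ATP5ME (-0.14 to 0.14), COX7A2 (-0.23 to 0.068), COX7C (-0.064 to 0.21), MT-ND5 (-0.16 to 0.094), NDUFAF8 (-0.038 to 0.13) and NDUFS5 (-0.17 to 0.061). The log2 difference in mitochondrial to nuclear ratio was -0.16, ranged from -0.29 to 0.028 with single libraries left out, and reversed without siCT replicate 3 (0.028). The cause of these reversals was not tested. Genes called over all genes numbered 56, against 108 with no filter, 191 with DESeq2, 128 with no length offset, and 17 to 40 with single libraries left out (17 without siPDCD4 replicate 1, 22 and 30 without replicates 2 and 3, 32 without siCT replicate 2). Members called with single libraries left out numbered 0 in each case.

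Replicate numbers are shared by the groups, but the deviations of same-numbered libraries correlated at 0.0718, 0.117 and 0.183, which does not establish pairing. With the replicate number as a block, 102 genes and 0 members were called, with the smallest adjusted p for a mitochondrial mRNA at 0.0899 (MT-CYB), and 5 of 6 libraries correlated best with their own number.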

Other observations

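Glycolysis, the route to ATP that does not need the chain, was not part of the comparison of genomes. Of its 18 tested genes, 16 lay below 0 and 2 above in log2 fold change, beside 51.3% of all genes below 0. Their median was -0.11 (-0.16 without siCT replicate 3). Of these genes 0 passed in edgeR or DESeq2, while 2 had an unadjusted p under 0.05 in edgeR, beside 8.62% of all genes. PFKP, a form of the enzyme that commits glucose to glycolysis, was at 334, 323 and 355 CPM in siCT and 295, 286 and 270 CPM in siPDCD4, without overlap (-0.25 ± 0.08, adjusted p = 0.330 in edgeR). ALDOC, an aldolase, was at 21.2 ± 3.2 CPM in siCT and 16.3 ± 2.4 CPM in siPDCD4 (n = 3 each, -0.39 ± 0.16, adjusted p = 0.50 in edgeR), with overlap.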
